A study of Saccharomyces cerevisiae S288C with 8 samples.

Results

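Divergent genes are neighbours that point away from each other, so the DNA between them holds both promoters and no end of a coding sequence. In the list of Cse4 peaks of the cdc7-7 strain that overexpressed Cse4 (cdc7-7 OE), 669 of 2203 peaks overlapped no annotated centromere and had the summit in such a gap, outside every coding sequence of the R64 annotation, with the nearest gene on the left on the minus strand and the nearest gene on the right on the plus strand. They made up 30.6% of the 2188 non-centromeric peaks of that list (exact 95% binomial interval 28.6 to 32.6%, which covers counting error only). The other non-centromeric summits were in gaps between tandem genes (803), in coding sequences (668), in gaps between convergent genes (40), and in introns or beyond the last gene of a chromosome (8). The remaining 15 peaks of the list were at centromeres, of which the annotation has 16. With a margin of 1 kb around the centromeres, 668 of the 669 members remained. All 4 lists of the series held 3243 peaks.

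The study mapped Cse4 by ChIP-seq in budding yeast, with 1 ChIP library and 1 input library for each of 4 strains, and 1 list of peaks was deposited for each ChIP. The labels give the strains as GAL-CSE4-FLAG cdc7-7 (cdc7-7 OE), GAL-CSE4-FLAG (wild type OE), CSE4-HA cdc7-7 (cdc7-7 endogenous) and CSE4-HA (wild type endogenous), grown for 1.75 h in raffinose and galactose medium for the OE strains and in glucose medium for the endogenous strains. All cells were fixed with formaldehyde and all 4 ChIP libraries were made with an anti-FLAG M2 gel, although the labels name an HA tag in the endogenous strains and the paper a Flag tag. Medium and overexpression changed together and cannot be told apart, and the question the comparison addresses is where Cse4 sits outside centromeres when the Cdc7 kinase is impaired. With 1 library per condition there is no measure of biological spread, so every comparison below is a description of these libraries and no p-value is given. At the centromeres, where Cse4 belongs, the 15 peaks of the cdc7-7 OE list had a median fold enrichment of 2.55 and 14 of them reached 2.

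Cse4 is the yeast form of CENP-A, the histone H3 variant that marks the centromere. The E3 ubiquitin ligase Psh1 targets misplaced Cse4 for degradation, and Cdc7 with its partner Dbf4 forms the kinase that starts DNA replication. Yeast promoters typically carry a stretch with few nucleosomes upstream of the transcription start, bordered by positioned nucleosomes, and divergent genes often share that stretch.

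The sequences at the summits show what kind of DNA the members sat on. Each window holds the summit in the middle and 100 bp on each side. The 6 members shown are among the 12 with the highest fold enrichment, and the centres of 2 well-known divergent gaps without any summit are set beside them. RTN1/LYS4 is chrIV:930458-930658, DIG1/CAM1 is chrXVI:464036-464236, PST2/MRH1 is chrIV:506001-506201, SDH1/AVT3 is chrXI:171436-171636, CLB5/THI22 is chrXVI:775362-775562, and CNL1/GGA1, shown with 50 bp on each side of the summit, is chrIV:1189646-1189746. The centres of the gaps HTA2/HTB2, between 2 core histone genes, and GAL10/GAL1, between 2 galactose genes, are chrII:236042-236242 and chrII:278586-278786. Coordinates are in R64 with the base sequence of RefSeq, plus strand, 5′ to 3′. Capitals mark every match, on either strand, to 10 motifs: an A tract (AAAAAAA), the TATA box (TATAAA), Reb1 (TTACCCG), Cbf1 (TCACGTG), Gcn4 (TGACTCA), Rsc3 (CGCGC), MBF (ACGCGT), Rap1 (ACCCANACA), and the Abf1 and Gal4 consensus. Of these, MBF and Rsc3 share letters, and a match is a description and not a bound site.
RTN1/LYS4: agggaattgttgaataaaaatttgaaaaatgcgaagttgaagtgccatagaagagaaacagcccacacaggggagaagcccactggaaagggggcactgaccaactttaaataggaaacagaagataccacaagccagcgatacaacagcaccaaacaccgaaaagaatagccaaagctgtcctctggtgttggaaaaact
DIG1/CAM1: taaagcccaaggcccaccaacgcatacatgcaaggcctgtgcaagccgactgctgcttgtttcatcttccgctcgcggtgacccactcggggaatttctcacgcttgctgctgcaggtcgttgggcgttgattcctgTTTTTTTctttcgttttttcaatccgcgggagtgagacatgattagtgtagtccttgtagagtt
PST2/MRH1: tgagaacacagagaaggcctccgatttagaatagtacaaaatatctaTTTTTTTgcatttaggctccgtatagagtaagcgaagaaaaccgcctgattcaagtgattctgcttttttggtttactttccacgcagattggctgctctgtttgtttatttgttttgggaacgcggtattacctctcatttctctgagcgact
SDH1/AVT3: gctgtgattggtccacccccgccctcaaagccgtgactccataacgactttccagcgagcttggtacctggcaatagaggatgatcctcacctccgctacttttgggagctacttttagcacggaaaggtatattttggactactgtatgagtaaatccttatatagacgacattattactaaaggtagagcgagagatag
CLB5/THI22: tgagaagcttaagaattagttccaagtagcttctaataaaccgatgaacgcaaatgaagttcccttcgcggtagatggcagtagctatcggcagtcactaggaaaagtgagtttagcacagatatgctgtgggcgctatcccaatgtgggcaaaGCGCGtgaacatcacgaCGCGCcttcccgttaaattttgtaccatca
CNL1/GGA1: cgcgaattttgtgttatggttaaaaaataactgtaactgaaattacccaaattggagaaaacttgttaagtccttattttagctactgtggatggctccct
HTA2/HTB2: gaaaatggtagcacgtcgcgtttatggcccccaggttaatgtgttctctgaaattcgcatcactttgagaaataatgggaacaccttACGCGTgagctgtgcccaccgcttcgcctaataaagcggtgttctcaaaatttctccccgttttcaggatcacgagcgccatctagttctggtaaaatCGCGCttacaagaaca
GAL10/GAL1: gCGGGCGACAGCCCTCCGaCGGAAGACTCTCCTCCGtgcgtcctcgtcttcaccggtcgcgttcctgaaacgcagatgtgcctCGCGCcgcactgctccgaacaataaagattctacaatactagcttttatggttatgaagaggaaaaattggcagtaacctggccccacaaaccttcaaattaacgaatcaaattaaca
In the 3 member windows RTN1/LYS4, SDH1/AVT3 and CNL1/GGA1 none of the 10 motifs was found. DIG1/CAM1 and PST2/MRH1 each held 1 A tract, off the summit base at the middle of the window, and CLB5/THI22 held Rsc3 letters. The GAL10/GAL1 centre held 2 stretches of Gal4 consensus and Rsc3 letters, the HTA2/HTB2 centre held MBF and Rsc3 letters, and neither gap had a member. In the windows named here such matches occurred both in members and in empty gaps, and the shares over all windows are given further below. Among windows not shown, the member DPS1/BPT1 also held Gal4 consensus and Rsc3 letters, and the member YKL063C/MSN4 held Rsc3 letters. Of the other empty histone gaps, HHF1/HHT1 held none of the 10 motifs at its centre, HTB1/HTA1 an A tract and HHT2/HHF2 Rsc3 letters.

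A large share of all divergent gaps held a summit. Of 1527 divergent gaps, 634 held at least 1 member summit, which is 41.5% (exact interval 39.0 to 44.0%). The share was 27.8% of tandem gaps (785 of 2828, interval 26.1 to 29.4%) and 2.64% of convergent gaps (40 of 1513, interval 1.90 to 3.58%), and 24.9% of the 5868 gaps of all classes held a summit. Divergent gaps made up 32.9% of the bases between coding sequences and held 44.2% of the summits found there. Per kb of gap there were 0.628 summits in divergent gaps, 0.485 in tandem gaps and 0.0768 in convergent gaps. A divergent gap has 2 start codons and a tandem gap 1, and counted per 100 start codons the order was the other way round, with 21.9 summits in divergent gaps and 28.4 in tandem gaps.

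Gaps with a member were longer than gaps without one. The median length was 663 bp for the 634 gaps with a summit and 443 bp for the 893 without. Taken peak by peak, the gap of a member had a median of 685 bp and ran from 125 bp at TML25/SRN2 to 6381 bp at RNH203/TAR1. The classes of length and distance used here include their upper bound and not their lower one. The share of divergent gaps with a summit was 14.5% (16 of 110) at up to 200 bp, 33.6% (162 of 482) at 200 to 400 bp, 36.0% (103 of 286) at 400 to 600 bp, 47.6% (186 of 391) at 600 to 1000 bp and 64.7% (167 of 258) above 1000 bp. In the same length classes the share of tandem gaps was 6.75, 18.3, 32.2, 40.7 and 50.3%. Divergent gaps were thus ahead of tandem gaps in each class, with intervals that did not overlap at 200 to 400 bp (29.4 to 38.0% against 16.1 to 20.6%) and above 1000 bp (58.6 to 70.6% against 44.9 to 55.7%), and that overlapped in the other 3. Counted per kb, members were densest in short gaps, with 1.17 summits per kb at 200 to 400 bp and 0.422 above 1000 bp, against 0.612 and 0.302 in tandem gaps.

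**Figure D1:**
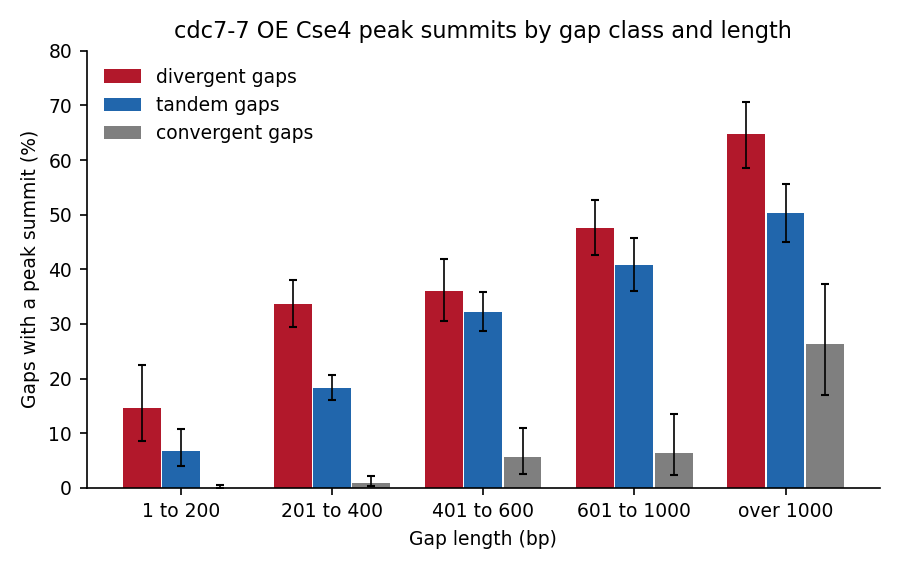
Bars give the percent of gaps that held a summit of a cdc7-7 OE Cse4 peak, by gap length in bp, for divergent gaps, tandem gaps and convergent gaps, and lines are exact 95% binomial intervals for counting error. The share of divergent gaps climbed from 14.5% in the shortest class to 64.7% in the longest, and convergent gaps stayed at or below 26.2%.

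Most gaps had a lone member. There were 600 gaps with 1 member, 33 with 2 and 1 with 3. The gaps with 2 or more had a median length of 1955 bp, and neighbouring summits in the same gap were 594 to 2612 bp apart, with a median of 1060 bp over 35 pairs. The gap with 3 was EST3/FAA3 on chromosome IX, 3131 bp between a telomerase subunit gene and a fatty acyl-CoA synthetase gene. Its 3 members had fold enrichments of 1.49, 1.45 and 1.33, at 6, 1511 and 2458 bp from the EST3 start codon, and none overlapped a peak of the other lists. Gaps with 2 members included VOA1/CLB1, CLB5/THI22, PST2/MRH1, CYC3/CDC19, RFA3/CPS1 and SCM3/RGT2. SCM3 encodes the chaperone that loads Cse4 at centromeres.

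Members were not centred in their gaps. When each gap was scaled from the left start codon to the right one, 35.7% of the summits fell in the left 33.3% of the gap, 30.8% in the middle (exact interval 27.3 to 34.4%) and 33.5% in the right, so that an even spread was within the interval. The nearer start codon belonged to the left gene in 342 members and to the right gene in 327. The summit was 1 to 1930 bp from the nearer start codon, with a median of 145 bp, and 505 bp from the farther one. In 132 members it was within 50 bp of a start codon, in 398 (59.5%) within 200 bp and in 515 (77.0%) within 300 bp. The members in gaps of 200 to 400 bp had a median distance of 65 bp and those in gaps above 1000 bp one of 353.5 bp (n = 162 and 200).

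**Figure D2:**
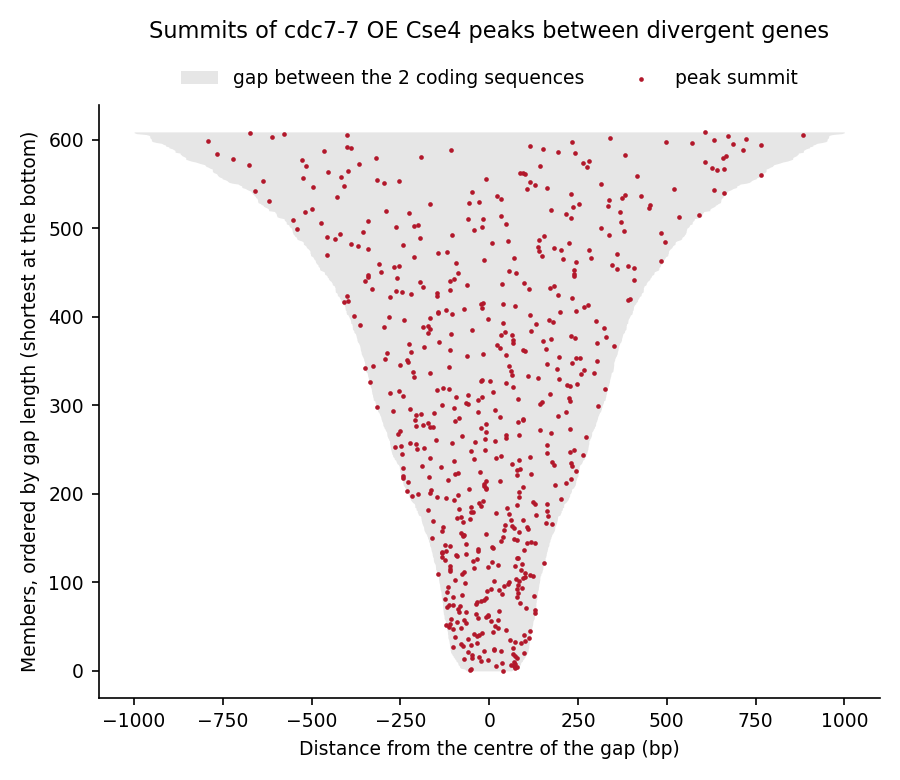
Each row is 1 of the 610 members in gaps of at most 2000 bp, ordered by gap length with the shortest at the bottom; grey is the gap and the dot is the summit, against the distance in bp from the centre of the gap. Summits were spread over the width of the gap at all lengths shown, and 59 members in longer gaps are not drawn.

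Tandem gaps showed which side of a gap the summits kept to. There, 46.6% of the 803 summits were in the 33.3% of the gap next to the start codon and 16.9% in the 33.3% next to the stop codon of the other gene. Members had 0.871 summits per kb at up to 50 bp from the nearer start codon, 0.752 at 50 to 100 bp and 0.784 at 100 to 150 bp. Their density was 0.543 at 150 to 200 bp, 0.737 at 200 to 300 bp and 0.684 at 300 to 400 bp. Farther out it was 0.416 at 400 to 600 bp, 0.328 at 600 to 1000 bp and 0.129 above 1000 bp. The corresponding values from the start codon of tandem gaps were 0.775, 0.753, 0.727, 0.630, 0.594, 0.532, 0.411, 0.254 and 0.151. From the stop codon of tandem gaps the density was 0.199 at up to 50 bp and 0.809 at 300 to 400 bp. Tandem summits were thus dense near start codons and sparse next to stop codons. For members the distance classes pool gaps of all lengths, and short gaps hold bases only near a start codon. Short gaps also had more members per kb, 1.17 at 200 to 400 bp against 0.422 above 1000 bp. Scaled to the gap, 30.8% of members were in the middle 33.3%. The part of gap length in the fall of member density with distance was not tested.

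**Figure D3:**
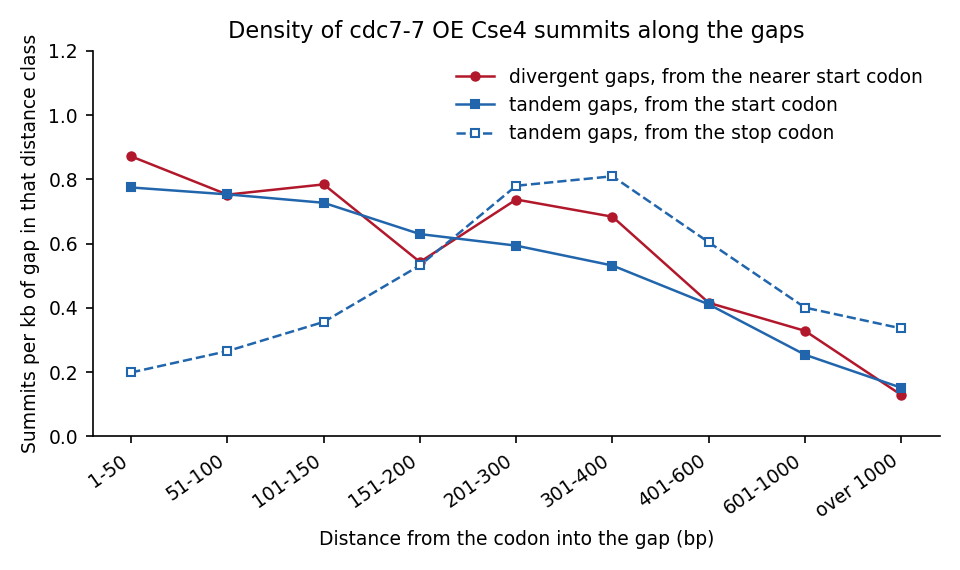
Summits of cdc7-7 OE peaks per kb of gap, by distance in bp from the nearer start codon in divergent gaps, and from the start codon and from the stop codon in tandem gaps. Divergent gaps had 0.871 summits per kb in the first 50 bp from a start codon, against 0.199 next to the stop codon of tandem gaps. Gaps of all lengths are pooled.

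The peaks often reached past the gap. Members were 272 to 2752 bp wide, with a median of 521 bp, against 463 bp for tandem peaks. The peak ran into both coding sequences in 181 members, into 1 of them in 354, and stayed within the gap in 134. It covered a median of 67.4% of the gap. Where a summit sits close to a gene the class of the peak depends on few bases. The 132 members with a summit within 50 bp inside the gap had a median fold enrichment of 1.54, and the 113 peaks with a summit within 50 bp inside a coding sequence next to such a gap had 1.50. For RPL15A/YLR030W the summit was 1 bp from the start codon of RPL15A, a ribosomal protein gene with a near-identical copy elsewhere. The 12 members with the highest fold enrichment had the summit at least 117 bp from the nearer start codon.

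Fold enrichment here is the pileup of fragments at the summit over the local background, as deposited, and it was modest in members. It ran from 1.21 to 2.47 with a median of 1.55, against 1.56 in tandem, 1.50 in convergent and 1.49 in coding peaks of the same list. A fold of at least 2 was reached by 25 members, 3.74%, beside 3.56% of all non-centromeric peaks. The −log10 q was at least 5 in 506 members, 75.6%, beside 72.3% of all non-centromeric peaks. Solved from the deposited values, the members' summits carried 157 to 407 fragments, with a median of 226, over a background with a median of 143.9. In 39 members the background was at the lowest value of the list, 120.1. Across the 669 members, which share a library, fold enrichment had a Spearman rho of 0.43 with peak width, 0.11 with gap length, 0.06 with distance to the nearer start codon and 0.02 with the background.

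RTN1/LYS4 had the highest fold enrichment, 2.47, with 407 fragments over a background of 164.4 and a peak at chrIV:930148-930848. Its gap of 771 bp lies between RTN1 (YDR233C), a reticulon that shapes the endoplasmic reticulum, and LYS4 (YDR234W), homoaconitase of lysine synthesis, and the summit was 571 bp from LYS4, nearer to RTN1. SSO2/ADD37 followed with 2.37, in a gap of 380 bp beside SSO2 (YMR183C), a SNARE protein of the plasma membrane. CNL1/GGA1 also had 2.37, with the summit 129 bp from CNL1 (YDR357C), a BLOC-1 subunit gene, and 363 bp from GGA1 (YDR358W), a Golgi clathrin adaptor gene. DIG1/CAM1 had 2.27, and its summit was 16 bp from the centre of a 561 bp gap between DIG1 (YPL049C), an inhibitor of the Ste12 mating factor, and CAM1 (YPL048W), a translation elongation factor subunit gene. Of these 4, CNL1/GGA1 alone had a peak in another list, at a fold enrichment of 2.21 in wild type OE.

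The next members were mostly in long gaps. DPS1/BPT1 had 2.24 in a gap of 4856 bp next to DPS1 (YLL018C), the cytosolic aspartyl-tRNA synthetase, and its summit was inside an annotated pseudogene on the plus strand, chrXII:112847-115993, the sole member summit in a pseudogene. The gap therefore counts as divergent because a pseudogene has no coding sequence in the annotation. PST2/MRH1 had 2.21 in a gap of 3451 bp that also holds the origin ARS450, 517 bp from the summit, and 2 noncoding RNA genes, the nearer 233 bp away. It had peaks of 1.79 in cdc7-7 endogenous and 1.29 in wild type endogenous. A second member of the same gap had 1.63.

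MEK1/TFB6 had 2.18, with the summit 119 bp from TFB6 (YOR352W), a gene of the transcription factor TFIIH, and 583 bp from MEK1 (YOR351C), a meiotic kinase gene. YKL063C/MSN4 had 2.17 beside MSN4 (YKL062W), a stress response transcription factor gene, and SDH1/AVT3 had 2.16 beside SDH1 (YKL148C), the flavoprotein of succinate dehydrogenase. CLB5/THI22 had 2.14 in a gap of 3400 bp, 280 bp from CLB5 (YPR120C), an S-phase cyclin gene, with a tRNA gene 303 bp from the summit. NHP10/RMD1 had 2.11 beside NHP10 (YDL002C), an INO80 remodelling complex gene, and overlapped a wild type endogenous peak of 1.31. Among the 12 strongest, 9 overlapped no peak of any other list, beside 547 of all 669 members. Of all 2188 non-centromeric peaks of the cdc7-7 OE list, 20% overlapped a peak of another list.

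Of the genes of the pathway studied, CDC7 and PSH1 flank a divergent gap with a member, beside 41.5% of all divergent gaps, DBF4 and CSE4 flank no divergent gap, and the gap PIG1/MCM5 of 525 bp, at the helicase subunit gene MCM5 (chosen after its values were seen), held none. The gap ERP3/CDC7, 698 bp, held a member of 1.47 with the summit 158 bp from the CDC7 (YDL017W) start codon, and a cdc7-7 endogenous peak of 1.54 overlapped it. The gap THI20/PSH1, 2538 bp, held a member of 1.54 with the summit 71 bp from the PSH1 (YOL054W) start codon, and no other list had a peak there. In the longest gap, RNH203/TAR1, which contains part of the ribosomal DNA, the summit was 71 bp from RNH203, with a fold enrichment of 1.96 in cdc7-7 OE and 1.39 in wild type endogenous. In the shortest, TML25/SRN2, it was 1.64 with no peak in the other lists. Of 13 divergent gaps whose genes share a 3-letter symbol, 3 held a member (23.1%, beside 41.5% of all divergent gaps): RPL24A/RPL30 (1.62, large ribosomal subunit), PIR1/PIR3 (1.50, cell wall proteins) and RPA43/RPA190 (1.44, RNA polymerase I).

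Of the 669 members, 547 overlapped no peak in the other 3 lists. Overlap was taken as at least 1 bp, and is given beside the same share of all 2188 non-centromeric peaks of the cdc7-7 OE list. In wild type OE, 3 members (0.448%) were overlapped, beside 0.96%. In cdc7-7 endogenous it was 18 members (2.69%), beside 3.7%, and in wild type endogenous 110 members (16.4%), beside 18.6%. Any other list overlapped 122 members (18.2%), beside 20%, and no member was overlapped in all 3, which allows a share of up to 0.550%, beside 0.411%. The members' shares were thus near or below those of the list as a whole.

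Seen from the other lists, divergent gaps held a smaller part of the peaks. They held 30.6% of the non-centromeric peaks in cdc7-7 OE, against 3 of 30 in wild type OE (10.0%, exact interval 2.11 to 26.5%), 14 of 167 in cdc7-7 endogenous (8.38%, interval 4.66 to 13.7%) and 109 of 795 in wild type endogenous (13.7%, interval 11.4 to 16.3%). Coding sequences held 30.5% of the non-centromeric summits in cdc7-7 OE, against 43.3, 67.1 and 60.8% in those 3 lists. A member overlapped 2 of the 3 divergent peaks of wild type OE, 12 of the 14 of cdc7-7 endogenous and 84 of the 109 of wild type endogenous. Over all non-centromeric peaks of these lists the shares were 10.0, 10.8 and 14.3%. Members lie in divergent gaps by definition and 41.5% of such gaps held one, so divergent peaks could meet a member more readily than other peaks. The background at the summits had a median of 141.8 fragments in cdc7-7 OE, 38.1 in wild type OE, 71.7 in cdc7-7 endogenous and 194.9 in wild type endogenous, so that the libraries differed in depth, and the lowest non-centromeric fold enrichment was 1.63 in wild type OE. Of the 238 members at or above 1.63, 3 were overlapped in wild type OE (1.26%), beside 17 of 694 non-centromeric peaks (2.45%). The part of depth in the overlap was not tested.

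The overlapped members can be named. Those in wild type OE were CNL1/GGA1 (2.37 in cdc7-7 OE, 2.21 in wild type OE), PRP6/MRX18 (1.66 and 2.07), beside the splicing factor gene PRP6, and RPL38/YLR326W (1.76 and 1.96), beside a ribosomal protein gene. Among the 18 shared with cdc7-7 endogenous, 8 also overlapped a wild type endogenous peak. These included ROX3/RPL32 (1.53 in cdc7-7 OE, 1.68 in cdc7-7 endogenous, 1.84 in wild type endogenous), AGE1/YDR524W-C (1.94, 1.59 and 1.69) and SEC59/BUD22 (1.67, 1.79 and 1.59). CDC34/PST1, at the gene of the ubiquitin-conjugating enzyme Cdc34, had 1.89 in cdc7-7 OE and 1.50 in cdc7-7 endogenous. Where a wild type endogenous peak overlapped, the cdc7-7 OE value was the higher in 100 of 110 members, with medians of 1.63 and 1.37, while against cdc7-7 endogenous it was the higher in 9 of 18. The lists also differed as wholes, with medians over all non-centromeric peaks of 1.53 in cdc7-7 OE, 1.68 in cdc7-7 endogenous and 1.38 in wild type endogenous. The summits of the paired peaks were a median of 159.5 bp apart for wild type endogenous and 163 bp for cdc7-7 endogenous.

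Overlap with the wild type endogenous list went with fold enrichment, in members as in the whole list. From the lowest to the highest 25% of the members by fold enrichment, 9.52, 13.2, 22.2 and 21.0% overlapped a peak there. The median was 1.63 for the overlapped members and 1.54 for the others, beside 1.60 and 1.52 over all non-centromeric peaks. Wider peaks also had the higher fold enrichment, and the part of width in the overlap was not tested.

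**Figure D4:**
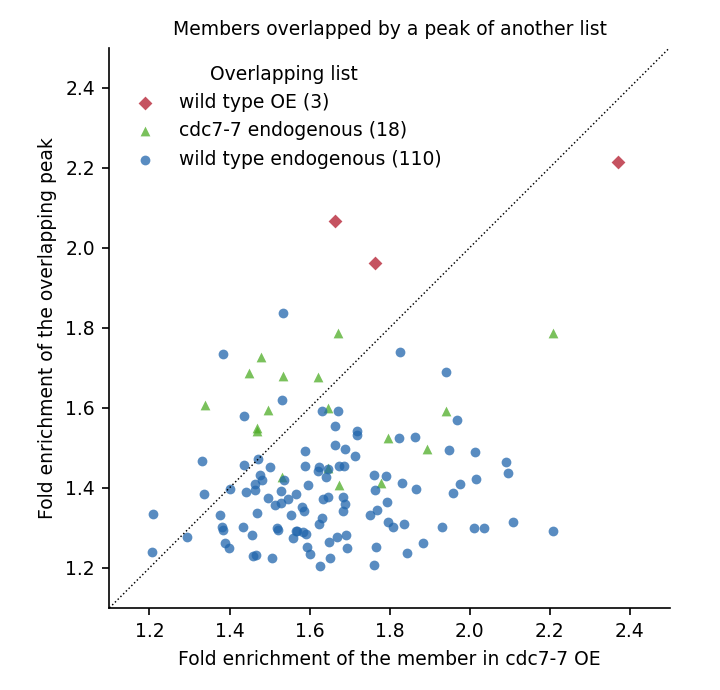
Fold enrichment of a member in cdc7-7 OE (horizontal) against that of the overlapping peak in wild type OE (3 members), cdc7-7 endogenous (18) or wild type endogenous (110). The dotted line marks equal values; 100 of the 110 wild type endogenous points lie below it, and 2 of the 3 wild type OE points lie above it.

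The genes beside members came from many functions, and 1147 of the 1268 flanking genes had a name (90.5%, against 88.3% of genes beside any divergent gap). Counts below are divergent gaps with a summit over divergent gaps flanked by a gene of the list, to be read against the 41.5% of all divergent gaps. The lists were taken by gene symbol or annotated product, so a list can hold genes of another function. The lists for cyclins, glycolysis, CDC genes and the proteasome stood at 50% or above with more than 4 gaps, and the gaps of the first 2 were long, with medians of 1110 and 1129 bp, a length at which 64.7% of all divergent gaps held a summit. Cyclin genes had a summit in 4 of 5 gaps (exact interval 28.4 to 99.5%), with fold enrichments of 2.14 at CLB5, 1.82 at CLN2, 1.80 at CLB1 and 1.49 at CLB4, and none at CLB6. Glycolysis genes had 5 of 7 (29.0 to 96.3%), with 1.84 at ENO1 (enolase), 1.77 at PFK2 (phosphofructokinase), 1.63 at TDH2 and at PGK1, and 1.47 at CDC19 (pyruvate kinase), and none at ENO2 and TDH1. CDC genes had 13 of 21 (38.4 to 81.9%), among them CDC34 (1.89), CDC3 (1.88, a septin), CDC9 (1.69, DNA ligase) and CDC6 (1.56, a replication licensing factor). Proteasome genes had 11 of 21 (29.8 to 74.3%), among them PRE3 and PRE2, both proteolytic subunits of the core, with 1.58 and 1.36. Each of these intervals includes 41.5%.

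Cytosolic ribosomal protein genes, the largest list, had a summit in 24 of 70 gaps (34.3%), with an interval of 23.3 to 46.6% that includes 41.5%. Their gaps had a median of 783.5 bp, and the share of all divergent gaps of 601 to 1000 bp, 47.6%, was above that interval. Mitochondrial ribosomal protein genes, with gaps of 369 bp at the median, had 19 of 45 (42.2%). Replication and repair genes had 11 of 25, among them RAD59 (1.82), RAD52 (1.78, the recombination mediator) and RAD27 (1.70, a flap endonuclease). tRNA synthetase genes had 9 of 22, amino acid and purine synthesis genes 10 of 30, heat shock protein genes and vacuolar ATPase genes 3 of 8 each, RNA polymerase genes 5 of 19 and nuclear pore genes 2 of 10. Of 2 gaps beside galactose genes 1 held a member, and its gene GAL11 encodes a Mediator subunit and not a galactose enzyme.

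No summit was found beside core histone or hexose transporter genes. For the 4 histone gaps HTB1/HTA1, HTA2/HTB2, HHF1/HHT1 and HHT2/HHF2, 646 to 817 bp long, no cdc7-7 OE peak touched the gap, and the nearest summit was 1003.5 to 1391 bp from its centre. With 4 gaps a share of up to 60.2% remains possible. In the other lists, HHT2/HHF2 was touched by 2 peaks in cdc7-7 endogenous (the higher at 2.13) and 1 in wild type endogenous (1.44), HHF1/HHT1 by 1 in cdc7-7 endogenous (1.86) and HTA2/HTB2 by 1 in wild type endogenous (1.58). No wild type OE peak touched any of them. The GAL10/GAL1 gap of 668 bp, which is active in galactose medium, had no peak in any of the 4 lists, and its nearest cdc7-7 OE summit was 2657.5 bp from the centre. The 8 hexose transporter gaps had no summit, which allows up to 36.9%, and on average 62.6% of the 50-mers in them were unique in the genome, against 99.0% in gaps with a member.

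Divergent gaps near chromosome ends held fewer members. Within 20 kb of an end 12 of 58 gaps had a summit (20.7%), against 41.9% (90 of 215) within 50 kb of a centromere and 42.4% (532 of 1254) elsewhere. The gaps near ends were also poor in unique sequence, with a mean of 65.7% unique 50-mers. Of the 24 near ends with at least 90% unique 50-mers, 10 held a summit (41.7%), against 42.5% of all 1441 such gaps. By chromosome, the share ran from 20.5% of 39 gaps on chromosome III to 51.5% of 136 gaps on chromosome VII. The part of read mapping in these shares was not tested.

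Other annotated elements were rarely under the summit. The peak overlapped a replication origin in 12 members (1.79%), against 4.73% of tandem peaks and 3.38% of all non-centromeric peaks. A tRNA gene was overlapped by 16 members (2.39%, against 1.92% of all non-centromeric peaks), a long terminal repeat by 7 (1.05%, against 0.823%) and a snoRNA gene by 5 (0.747%, against 0.731%). The summit itself was within an origin in 3 members (CYC3/CDC19, TDH2/MET3 and FPT1/PRY2) within a tRNA gene in 1 (YKR073C/AIM29), within a noncoding RNA gene in 1 (the weaker member of PST2/MRH1) and, as above, within a pseudogene in 1. Divergent gaps that contain such an element were long, with median lengths of 1273 to 1544.5 bp, and held a summit in 29 of 56 cases for origins (51.8%), 49 of 86 for tRNA genes (57.0%), 36 of 64 for long terminal repeats (56.2%) and 8 of 13 for snoRNA genes (61.5%), beside 41.5% of all divergent gaps and 64.7% of those above 1000 bp.

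The windows at the member summits were not rich in A and T. With 100 bp on each side of the summit the median A+T share was 61.2%, against 62.2% at tandem summits, 62.2% at the centres of divergent gaps with a summit, 64.2% at the centres of divergent gaps without one and 61.7% in the whole genome. The highest 25% of members by fold enrichment had 60.2% and the lowest 61.7%. Taken over the whole gap, the gaps of the members had a median of 63.1%. In 243 members (36.3%) a start codon was within 100 bp of the summit, so the window ran into coding sequence. Centres were taken in 1417 of the 1527 divergent gaps. The part of coding bases in the A+T share was not tested. An A tract of at least 7 was in 27.2% of member windows (exact interval 23.9 to 30.7%), against 32.5% of tandem windows, 33.3% of the centres of gaps with a summit and 40.6% of the centres of gaps without one (37.1 to 44.0%), and in 37.4% of the centres of all divergent gaps. The Abf1 consensus, of a general regulatory factor that keeps promoters open, was in 5.53% of member windows, against 11.0% of the centres of gaps with a summit and 15.9% of the centres of gaps without one (13.8% of all centres). The TATA box was in 20.6%, against 22.8 and 31.7% at the same centres (27.8% of all), so that most of that difference lay between gaps with and without a summit. Rap1 was in 0.448%, against 1.62 and 2.38% (2.05% of all). Rsc3 letters, bound by the RSC remodelling complex, were in 15.1%, against 13.6 and 9.76% (11.4% of all). Reb1 was in 4.04%, against 5.18 and 6.51% (5.93% of all), and Gal4 in 1.64%, against 1.94 and 1.38% (1.62% of all).

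Members and empty gaps differ in length and in the place of the window, so matches were also counted by distance from the summit within the gap. There were 1.51 A tracts per kb within 50 bp of the member summits, 1.93 at 50 to 100 bp, 2.50 at 100 to 150 bp, 2.62 at 150 to 200 bp and 2.74 at 200 to 300 bp. For the 156 members at least 300 bp from both start codons, whose whole window was in the gap, the values were 1.52, 1.86, 2.76, 2.69 and 2.76. Tandem summits had 1.81, 2.47, 2.86, 2.23 and 2.79. In all 3 sets the density was lowest next to the summit. Taken over whole gaps, it depended on gap length. It was 1.92 per kb in divergent gaps with a summit against 2.97 in those without at 200 to 400 bp, 2.02 against 2.43 at 400 to 600 bp and 2.55 against 2.81 at 600 to 1000 bp, while above 1000 bp it was the higher in gaps with a summit, those without having 1.92. Over all lengths it was 2.36 against 2.46. Abf1, gaps with a summit first, had 0.641 per kb against 0.776 at 200 to 400 bp and 0.534 against 0.737 at 400 to 600 bp. It had 0.507 against 0.531 at 600 to 1000 bp and 0.257 against 0.223 above 1000 bp. Rap1 was denser in gaps with a summit from 400 to 1000 bp and sparser in the other classes. Rsc3 letters were denser in gaps with a summit in every length class. In the same 156 members, TATA boxes had 0.825 matches per kb within 50 bp of the summit and 2.12 at 200 to 300 bp, and Abf1 had 0.254 and 0.449. Rsc3 letters had 0.889 within 50 bp, 1.92 at 150 to 200 bp and 1.22 at 200 to 300 bp, while over all 669 members they had 1.09, 0.967 and 0.891, so that they were not concentrated at the summits of the members far from a start codon. Reb1 and Rap1 had at most 7 matches in any distance class of these 156 members.

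**Figure D5:**
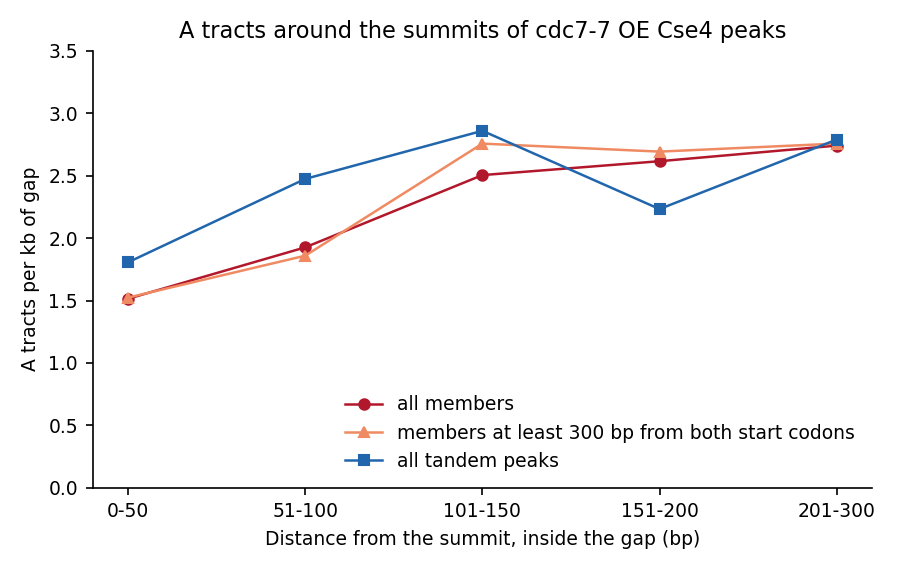
A tracts of at least 7 per kb of gap, by distance in bp from the summit, for all 669 members, for the 156 members at least 300 bp from both start codons, and for 803 tandem peaks. The first 50 bp had the lowest density in all 3 sets, 1.51 for all members against 2.74 at 200 to 300 bp.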

How the data were processed

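The deposited files are 4 peak lists, 1 per ChIP library. Per the labels, the authors aligned paired reads with Bowtie 1.0.0 and SAMtools to R64 (sacCer3). As the paper's methods state, they removed duplicates and called peaks with MACS at its default settings, and the names of the deposited files pair each ChIP with its own input. The lowest −log10 q of a non-centromeric cdc7-7 OE peak was 1.32. The columns used were the authors' fold enrichment (a ratio of pileup plus 1 to background plus 1 at the summit), the deposited −log10 p and −log10 q, and the positions. The deposited score was checked and not used. No list states a number of fragments, so depth is known only as the background solved from fold and p, which worked for all but 7 of 3243 peaks.

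Gaps were the bases between the coding sequences of neighbouring genes among 6002 protein-coding genes (RefSeq R64). Overlap needed 1 bp, and intervals are exact (Clopper-Pearson, 95%). Named members were the 12 with the highest fold enrichment (1 of them is not reported here), those in the gaps of most members, shortest and longest length, those beside CDC7 and PSH1, those whose genes share a 3-letter symbol, and the histone and GAL10/GAL1 gaps; DBF4 and CSE4 flanked none. Others were named after their values were seen. Members and gene lists were chosen with earlier results of these data known. Scripts used Python 3.11.15, pandas 2.3.3, numpy 2.4.6 and scipy 1.17.1, and were tested on simulated data. Duplicate removal and unique alignment may affect the values in repeats, which was not tested, and the 4 input libraries were used only through the lists.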

Additional observations from a re-analysis of the deposited data

How the results depend on the processing

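No paired analysis was possible because each condition has 1 ChIP library and no test was made. Of the alternatives tried, a minimum fold enrichment of 2 left 25 members in 1.64% of divergent gaps, at 0.0235 summits per kb, with 4% overlapped in wild type OE and 32% in wild type endogenous. A minimum −log10 q of 5 left members in 31.9% of divergent gaps, and 19.6% of them were overlapped in wild type endogenous. With the midpoint of the peak in place of the summit, 46.4% of divergent gaps held a member and 37.0% of the members were in the middle 33.3% of the gap. Counting every annotated gene gave 38.6% of divergent gaps, and counting any peak that touched the gap gave 57.2%. Requiring 50% of the member to be covered gave overlaps of 0.149% with cdc7-7 endogenous and 6.58% with wild type endogenous, and requiring the other summit inside the member gave 13.2% with wild type endogenous. The other 25 values for the main comparisons moved by less than the counting interval of the share, 1.5 times the count, or the spread among members, although the median distance to the nearer start codon was 265 bp at a minimum fold enrichment of 2, against 145 bp. Of 38 motif and gene list shares 33 moved by less than their interval. With a window reaching 50 bp on each side, A tracts were in 13.2%, TATA boxes in 10.9% and Reb1 in 1.35% of windows, and with any touching peak counted, gaps beside mitochondrial ribosomal protein genes stood at 68.9% and those beside RNA polymerase genes at 52.6%. The cause of the moves was not tested beyond what fewer peaks or wider windows imply by construction. The absence of a peak in another list is no absence of Cse4, since the libraries differed in depth.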
